A study of Mus musculus with 9 samples.

Results

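The data described here come from a group of nociceptive neurons of the mouse trigeminal ganglion, the ganglion that innervates the face, mouth and meninges. They are CGRP neurons in which transcripts of at least 2 of 7 genes, among them Cyp1b1, Kit and Kcnk3, were counted. The group holds 471 of the 6997 cell barcodes in the series, 12.2% of 3855 neurons and 29.3% of 1610 CGRP neurons. The ganglia were taken from FVB/N mice, wild type and, by the sample labels, 3 to 6 weeks old (the methods give a narrower range for Drop-seq), and were dissociated, enriched for neurons on a density gradient with magnetic depletion of other cells, and profiled by Drop-seq in 9 runs of pooled animals of both sexes. Drop-seq captures the 3' ends of polyadenylated RNA of single cells on barcoded beads, and each captured transcript is counted once by its unique molecular identifier (UMI). No animal, treatment or genotype was compared.

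Because no barcode can be traced to its run, the cells count as 1 sample and groups of cells are set side by side with counting intervals and without tests. A neuron was a barcode with 500 to 7500 genes, a UMI of 3 or more of Tubb3, Scn9a, Snap25, Nefl, Nefm and Uchl1, and none of the epithelial marker Epcam. A CGRP neuron also had 5 or more UMIs of Calca, the gene of the peptide CGRP. The neurons of interest (Cyp1b1/Kit/Kcnk3 neurons) had a UMI of 2 or more of Cyp1b1, Kit, Dcn, Kcnk3, Ccl21a, Aldh1a3 and Cartpt, more genes of that list than of Mfap5, Gpr83, Lpar1, Trpa1, Fgg, Tspan15 and Stk32a, and fewer than 2 of Fam150b, Ptger1, Vat1l, Capn5, Flrt1, Tmem233 and Ly86. All these genes therefore chose the cells, and their values are given as a description only. The remaining CGRP neurons were sorted by the same lists into 110 Trpa1/Mfap5/Gpr83 neurons, 797 Fam150b/Ptger1 neurons, 32 neurons with Sstr2 or Dcdc2a and 200 others. A further 1944 neurons had 0 or 1 UMI of Calca, the remainder having 2 to 4.

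Many CGRP neurons are nociceptors with thin or unmyelinated axons that release CGRP and substance P at their peripheral endings, where these peptides dilate blood vessels, and at their central terminals, and some larger sensory neurons also carry Calca. Many nociceptors carry the heat and capsaicin receptor TRPV1, and in the trigeminal system such neurons supply the meninges and are studied in migraine. KIT, the receptor tyrosine kinase for stem cell factor, is also known from nociceptors of the dorsal root ganglia, and KCNK3 (TASK-1) is a two-pore potassium channel that carries acid-sensitive leak current.

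The neurons of interest had a median of 2455 UMIs (quartiles 1694.5 and 3861.5) and 1525 genes, and the groups they are compared with had medians of 1798 to 5692 UMIs. Levels (CPM) are the UMIs of a gene scaled to a total of 1000000 in a group of cells, with an exact Poisson 95% interval in parentheses, and shares of cells with a UMI have an exact binomial (Clopper-Pearson) 95% interval. Ratios of levels have an exact conditional binomial 95% interval. These intervals cover counting error only, and since a few cells can hold many UMIs of a gene they are narrower than the variation between cells would give. Glia (261 barcodes) and erythroid cells (373) show how often neuronal genes are counted in barcodes of other cells, at medians of 1452 and 1405 UMIs. Of the 471 barcodes, 3 carry a name that 2 columns of the table share, and 31 equal or lie 1 base away from another barcode, among them 6 pairs in which both are Cyp1b1/Kit/Kcnk3 neurons. Without these 31, 440 remained.

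The 7 genes of the list are encoded on 6 chromosomes in the GRCm38.p6 (mm10) assembly, with Kit (chromosome 5, 75574987 to 75656722) and Kcnk3 (chromosome 5, 30588170 to 30625270) on the same one. Cyp1b1, a cytochrome P450 that oxidises oestrogens, retinoids and ligands of the aryl hydrocarbon receptor, lies at chromosome 17, 79706940 to 79715061. RefSeq promoter windows, 250 bases before to 50 bases after a transcript's start, were at hand for 4 of the 7 genes (Cyp1b1, Kit, Ccl21a and Cartpt). All 4 genes belong to the list that chose the cells, so that they were seen together was set in part by the rule. The windows shown, of Cyp1b1, Kit and Cartpt, were picked because each holds a motif with a known reader, in capitals. In the first pair it is GCGTG, the core bound by the aryl hydrocarbon receptor, on either strand, and in Cartpt it is TGACGTCA, the cAMP response element, which reads the same on both strands. Each window reads 5' to 3' on the strand of its gene.

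Cyp1b1 (chr17:79715012-79715311, minus strand): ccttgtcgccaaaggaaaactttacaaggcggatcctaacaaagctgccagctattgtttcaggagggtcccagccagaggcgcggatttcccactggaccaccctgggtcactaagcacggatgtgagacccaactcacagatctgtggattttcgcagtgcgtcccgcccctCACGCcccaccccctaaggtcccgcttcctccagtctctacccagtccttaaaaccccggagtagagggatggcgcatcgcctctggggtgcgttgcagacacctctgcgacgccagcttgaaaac
Kit (chr5:75574737-75575036, plus strand): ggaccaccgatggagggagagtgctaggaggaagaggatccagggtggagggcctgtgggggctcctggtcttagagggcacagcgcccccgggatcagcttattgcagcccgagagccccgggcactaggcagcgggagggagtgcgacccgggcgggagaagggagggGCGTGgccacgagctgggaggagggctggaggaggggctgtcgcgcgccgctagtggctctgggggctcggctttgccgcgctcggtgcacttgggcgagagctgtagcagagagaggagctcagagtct
Cartpt (chr13:99900634-99900933, minus strand): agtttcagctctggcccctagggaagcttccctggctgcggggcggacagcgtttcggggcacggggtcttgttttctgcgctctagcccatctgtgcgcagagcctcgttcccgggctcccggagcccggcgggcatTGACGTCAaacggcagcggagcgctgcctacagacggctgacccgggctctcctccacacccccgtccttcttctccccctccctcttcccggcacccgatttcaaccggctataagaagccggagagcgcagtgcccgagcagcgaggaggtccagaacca

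The GCGTG core begins 76 bases before the start of Cyp1b1 and 80 bases before that of Kit, and 32.5% of 27025 promoter windows hold this motif. The window of Cartpt holds the cAMP response element 112 bases before its start, a motif of 1.88% of the windows, and the windows of Cyp1b1, Kit and Ccl21a do not hold it. A match is a description of letters and not a measured binding site. None of the 4 windows holds TATAAA on either strand, a motif of 14.2% of the windows. The aryl hydrocarbon receptor gene Ahr itself was seen in 3.61% (2.12 to 5.72) of the Cyp1b1/Kit/Kcnk3 neurons at 11.8 CPM (7.0 to 18.7), against 10.5 CPM (2.86 to 26.8) in the Trpa1/Mfap5/Gpr83 neurons.

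Of the list that chose the cells, Cartpt, which encodes the precursor of the CART peptides, had a UMI in 88.7% (85.5 to 91.5) of the Cyp1b1/Kit/Kcnk3 neurons at 2995 CPM (2908 to 3083). Dcn, the gene of the small proteoglycan decorin, had one in 51.6% (47 to 56.2) at 631 CPM (591 to 672). Kit was seen in 46.1% (41.5 to 50.7) at 223 CPM (200.04 to 248), Cyp1b1 in 43.1% (38.6 to 47.7) at 214 CPM (191 to 238) and Kcnk3 in 32.7% (28.5 to 37.1) at 139 CPM (121 to 159). Each gene that names the group was thus seen in the minority of its cells. Aldh1a3, a retinaldehyde dehydrogenase that makes retinoic acid, was seen in 35.2% (30.9 to 39.7) at 169 CPM (149 to 191). Ccl21a, a chemokine gene with near-identical copies in the genome and an uncertain count for that reason, was seen in 24.6% (20.8 to 28.8) at 314 CPM (287 to 344). Of the opposing lists, Gpr83 (0.425%), Mfap5 (0.637%) and Fgg (1.06%) were seen least and Trpa1 (20.8%), Tspan15 (15.7%), Stk32a (9.55%) and Lpar1 (7.01%) more often. The 7 genes that exclude Fam150b/Ptger1 neurons ran from 1.49% (Fam150b) to 18.9% (Flrt1) of the cells. The 7 list genes had a UMI in 0% to 3.83% of glia and 0% to 2.95% of erythroid cells, the highest share in both being that of Cartpt.

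Few cells held the whole list. Exactly 2 of the 7 genes were seen in 166 neurons (35.2%), 3 in 129, 4 in 106, 5 in 50, 6 in 16 and all 7 in 4. The median depth went with that number, from 1869.5 UMIs with 2 genes to 8119 with 7. Of Cyp1b1, Kit and Kcnk3, at least 1 was seen in 366 neurons and all 3 in 39. Cartpt was 1 of only 2 list genes in 125 neurons, so that 346 neurons had 2 or more of the other 6 genes.

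**Figure D1:**
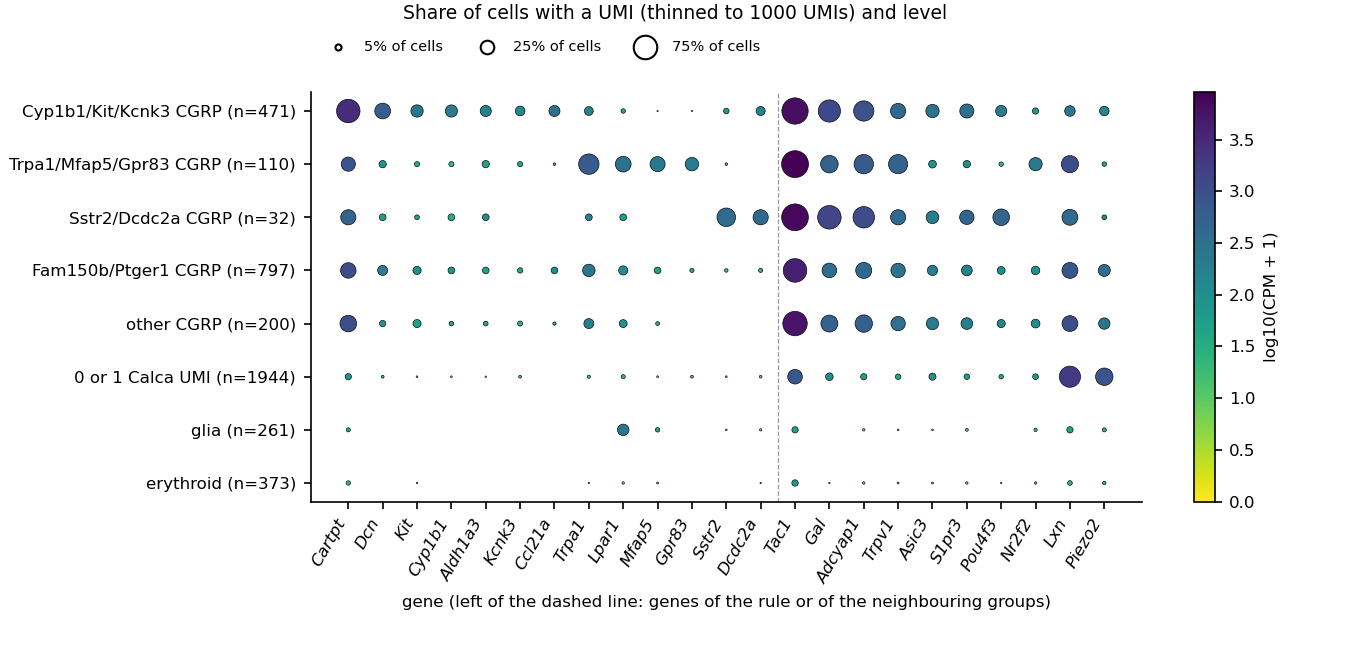
Share of cells with a UMI after each cell was thinned to 1000 UMIs (area of a dot) and level (colour, log10 of CPM + 1) of 23 genes (columns) in 8 groups of cells (rows, with the number of cells). The 7 list genes at the left are largest in the top row, which the rule chose, and Tac1, Gal and Trpv1 are seen in each group of CGRP neurons and far less often in glia and erythroid cells.

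Each list gene was then left out in turn, and the neurons were chosen again by 2 or more of the other 6 genes with all other conditions kept, so that the gene did not take part in its own selection. Cyp1b1 was then seen in 37.2% (32.6 to 42) of 427 neurons, against 10.3% (5.46 to 17.4) of 116 Trpa1/Mfap5/Gpr83 neurons chosen in the same way. Kit was seen in 39.4% (34.7 to 44.2) against 11.4% (6.21 to 18.7), and Kcnk3 in 28.6% (24.4 to 33.1) against 14.8% (8.85 to 22.6). These shares differ by more than their counting intervals. Dcn (43% [38.1 to 48] against 19.7% [13 to 27.8]), Ccl21a (22% [18.3 to 26.1] against 6.19% [2.53 to 12.3]) and Cartpt (83.9% [79.5 to 87.7] against 49.3% [40.6 to 58]) did so as well, while the intervals of Aldh1a3 met (29.7% [25.5 to 34.3] against 18.6% [12.1 to 26.9]). After thinning to 1000 UMIs, Kit was left in 16.7% against 4.39%, Cyp1b1 in 16.2% against 5.17%, Kcnk3 in 11% against 6.09% and Aldh1a3 in 13.1% against 8.47%. Dcn was left in 26.5% against 14.8%, Ccl21a in 14.7% against 2.65% and Cartpt in 71.5% against 39.7%. The list was drawn up from earlier results of these same cells, and these shares are therefore not independent evidence for it.

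The shares in Sstr2/Dcdc2a neurons had intervals that overlapped those of the Cyp1b1/Kit/Kcnk3 neurons for 6 of the 7 genes. With Cyp1b1 left out of the selection, it was seen in 37.5% (24 to 52.6) of 48 of these neurons, and with Kit left out, Kit was seen in 35.6% (21.9 to 51.2) of 45. Kcnk3 was seen in 31% (17.6 to 47.1) and Aldh1a3 in 38.6% (24.4 to 54.5) of them. Ccl21a (5.88% [0.72 to 19.7]), Dcn (27.5% [14.6 to 43.9]) and Cartpt (65.6% [52.7 to 77.1]) were seen less often, of which only Cartpt had an interval apart from that of the Cyp1b1/Kit/Kcnk3 neurons. The intervals are wide at 34 to 64 cells.

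The limit on the Fam150b list removed mainly deep cells. Before the limit on the Fam150b list, 762 CGRP neurons met the other conditions, and that limit removed 291, whose median was 6172 UMIs. When the CGRP neurons were split into 10 equal bins by depth, 39.8% of the shallowest (1000 to 1325 UMIs) were Cyp1b1/Kit/Kcnk3 neurons and 1.24% of the deepest (13614 to 50973 UMIs). Without the limit the share was 42.2% in the shallowest bin, 54.7% in bin 7 and 37.9% in the deepest. The number of neurons of this kind is therefore not read as a cell count of the ganglion.

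**Figure D2:**
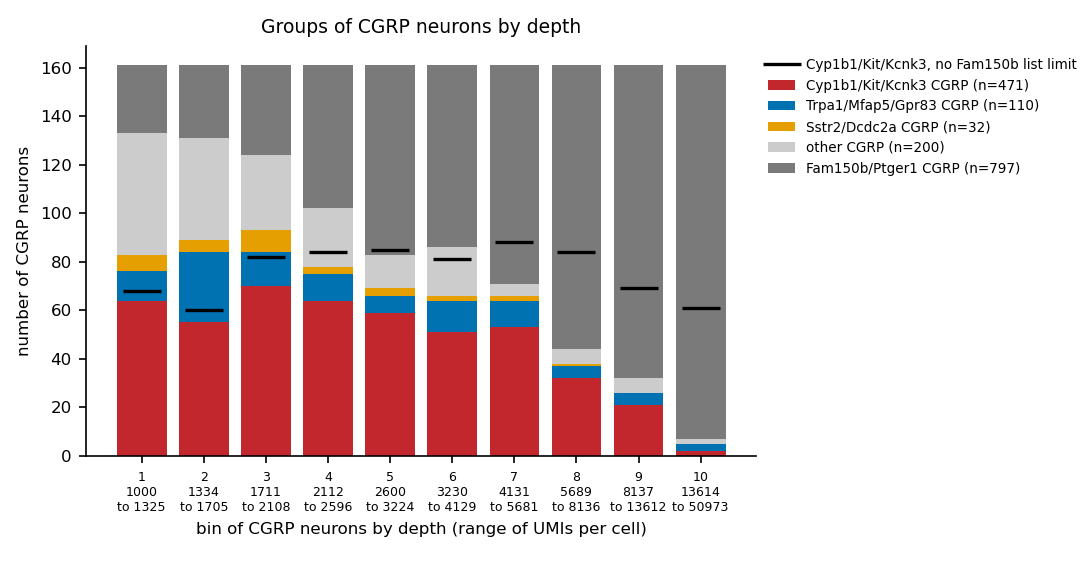
CGRP neurons in each of 10 bins by depth (horizontal axis, with the range of UMIs per cell), stacked by group (vertical axis, number of cells, 161 in each bin). The red part falls from 64 cells in the first bin to 2 in the last while the dark grey Fam150b/Ptger1 part grows from 28 to 154, and black marks give the number without the limit on the Fam150b list.

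Cells just inside and outside the limits were also set side by side. The 166 neurons with exactly 2 list genes had 371 CPM of Trpv1, 5834 CPM of Tac1 and 1049 CPM of Gal. The 94 CGRP neurons with 1 list gene and none of the Trpa1 list had 261 CPM of Trpv1, 4972 CPM of Tac1 and 779 CPM of Gal. Pou4f3 (154 CPM inside and 276 CPM outside), S1pr3 (279.9 and 392 CPM) and Asic3 (241 and 271 CPM) were lower inside the limit. Only 4 neurons had 5 or 6 UMIs of Calca and 6 further neurons with 3 or 4 met the other conditions, so the limit on Calca decided few cells. At the Fam150b limit, the 242 neurons with 1 gene of that list had 445 CPM of Trpv1, 6389.9 CPM of Tac1, 1154 CPM of Gal and 210.2 CPM of Pou4f3. The 140 neurons with exactly 2, which the limit removed, had 347 CPM of Trpv1, 5304 CPM of Tac1, 988 CPM of Gal and 232 CPM of Pou4f3.

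The neurons carried the peptides of classical CGRP nociceptors. Tac1, the precursor gene of substance P, had a UMI in 96.6% (94.5 to 98) of the cells at 6374 CPM (6248 to 6502), against 9052 CPM (8753 to 9359) in Trpa1/Mfap5/Gpr83 neurons and 775 CPM (757 to 794) in neurons with 0 or 1 UMI of Calca. Adcyap1, which encodes the vasodilator peptide PACAP, was seen in 81.7% (78 to 85.1) at 914 CPM (867 to 963), and Gal, the galanin gene, in 86.8% (83.4 to 89.8) at 1224 CPM (1169 to 1281). Gal was 2.35-fold (2.03 to 2.73) higher than in Trpa1/Mfap5/Gpr83 neurons and 11.4-fold (10.5 to 12.3) higher than in neurons with little Calca. Calcb, the gene of beta CGRP, was lower than in the Trpa1/Mfap5/Gpr83 neurons by less than 2-fold, at 534 CPM (498 to 572) against 1014 CPM (916 to 1120.5). Per cell, the middle of the Cyp1b1/Kit/Kcnk3 neurons had a median of 6349 CPM (quartiles 3937 and 8911) of Tac1 and a median of 1109 CPM (quartiles 570.3 and 1741) of Gal. Npy and Sst had no UMI in the 471 cells, which limits the share of cells with a counted UMI to 0.637% (3 cells of 471; the exact 95% upper limit is 0.780%) and does not limit the share of cells that express the genes. The share of cells with Tac1 was 8.05% in glia and 9.65% in erythroid cells, and free RNA, doublets and expression in these cells cannot be told apart.

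Genes were compared between groups where they had at least 50 UMIs in both groups together and took no part in the rule, and a gene was counted as higher or lower past a 2-fold ratio of CPM. The Cyp1b1/Kit/Kcnk3 neurons held 1523793 UMIs, the Trpa1/Mfap5/Gpr83 neurons 381572 and the neurons with little Calca 9005220. A gene seen mainly in the larger group passed this minimum at a lower level, which shapes the numbers of higher and lower genes. Against Trpa1/Mfap5/Gpr83 neurons, 268 of 6165 genes (4.35%) were higher and 134 (2.17%) lower, and without the limit on the Fam150b list in either group 396 were higher and 423 lower. Against neurons with little Calca, 657 of 10901 (6.03%) were higher and 1412 (13.0%) lower. Of those past 2-fold, 34 of 402 and 97 of 2069 had an interval that reached equal levels. The median log2 ratio over all genes tested was 0.01 and -0.05 in the same order. The lists of genes described below held 5 to 46 genes in the table, of which 1 to 37 had enough UMIs. Of neuropeptide genes, in the first comparison 1 of 5 were higher and 0 lower, with a median log2 ratio of 0.43, and in the second 4 of 10 were higher and 5 lower, with a median log2 ratio of -0.94. The genes lower in the second were Npy, Sst, Nppb, Vip and Tac2. Among peptide processing genes, 1 of 15 were higher and 0 lower, with a median log2 ratio of 0.17 against Trpa1/Mfap5/Gpr83 neurons and 4 of 18 were higher and 3 lower, with a median log2 ratio of -0.15 against neurons with little Calca. Scg2, the gene of secretogranin II of dense-core vesicles, stood at 1999 CPM (1929 to 2071) against 409 CPM (396 to 422) in the latter. Resp18, an endocrine secretory protein gene, was 6.3-fold (3.55 to 12.3) higher than in Trpa1/Mfap5/Gpr83 neurons. Only 1 peptide receptor gene could be compared with Trpa1/Mfap5/Gpr83 neurons and lay within 2-fold, while against neurons with little Calca 2 of 4 were higher and 0 lower, with a median log2 ratio of 1.10. These were Galr1, a galanin receptor (12.4-fold [7.04 to 22.7]), and Npy1r, a neuropeptide Y receptor (4.93-fold [3.91 to 6.2]).

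Among heat, chemical and mechanical sensors, Trpv1 was seen in 62% (57.4 to 66.4) of Cyp1b1/Kit/Kcnk3 neurons at 419 CPM (387 to 453). Its level was 9.63-fold (8.48 to 11) higher than in neurons with little Calca and within 2-fold of the 508 CPM (439 to 585) of Trpa1/Mfap5/Gpr83 neurons. After thinning to 1000 UMIs it was left in 31.6% of the cells. Trpa1, the irritant receptor gene, was seen in 20.8% (17.2 to 24.8) at 156 CPM (136 to 177), and since it belongs to the opposing list this level was held down by the rule. Against Trpa1/Mfap5/Gpr83 neurons 2 of 10 were higher and 1 lower, with a median log2 ratio of 0.03. The acid-sensing channels went in opposite directions there. Asic3 was 3.77-fold (2.57 to 5.75) higher, at 277 CPM (251 to 305) against 73.4 CPM (48.8 to 106). Asic1 was 9.4-fold (5.21 to 17.7) lower, at 11.2 CPM (6.5 to 17.9) against 105 CPM (74.9 to 143). The mechanotransduction channel Piezo2 was 3.47-fold (2.06 to 6.32) higher than in Trpa1/Mfap5/Gpr83 neurons and 6.28-fold (5.47 to 7.25) lower than in neurons with little Calca. Against the latter 3 of 20 were higher and 9 lower, with a median log2 ratio of -0.73. The cold receptor Trpm8 (9.03-fold [5.75 to 15.1] lower) and the ATP receptor P2rx3 (2.54-fold [1.58 to 4.35] lower) were among the lower genes. Of all genes, 6.03% were higher and 13.0% lower there, and 4.35% were higher and 2.17% lower against Trpa1/Mfap5/Gpr83 neurons.

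The sodium channels of nociceptors, Scn10a (Nav1.8) and Scn11a (Nav1.9), stood at 270.4 CPM (245 to 298) and 349.8 CPM (321 to 381). Scn10a was 2.02-fold (1.51 to 2.76) higher than in Trpa1/Mfap5/Gpr83 neurons, at the limit of 2-fold, and Scn11a 1.28-fold (1.04 to 1.6). Of sodium channel genes, 1 of 5 were higher and 0 lower, with a median log2 ratio of 0.04 in that comparison, and 0 of 10 were higher and 4 lower, with a median log2 ratio of -0.48 against neurons with little Calca. Among the lower genes were Scn1a, Scn8a and Scn4b. The shares over all genes were 4.35% higher and 2.17% lower against Trpa1/Mfap5/Gpr83 neurons. They were 6.03% higher and 13.0% lower against neurons with little Calca. Of the two-pore potassium channels other than Kcnk3, 1 of 2 were higher and 0 lower, with a median log2 ratio of 2.21 against Trpa1/Mfap5/Gpr83 neurons and 2 of 6 were higher and 4 lower, with a median log2 ratio of -2.66 against neurons with little Calca. Kcnk10 (TREK-2) had 53 UMIs against 1 in the Trpa1/Mfap5/Gpr83 neurons, a ratio of 13.3-fold (2.28 to 534). Kcnk2 (TREK-1) was 2.83-fold (2.3 to 3.46) higher and Kcnk18 (TRESK) 7.99-fold (3.37 to 24.8) lower than in neurons with little Calca.

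Of other potassium and HCN channel genes, 3 of 14 were higher and 1 lower, with a median log2 ratio of 0.01 against Trpa1/Mfap5/Gpr83 neurons. Kcna4 (6.01-fold [1.58 to 51]), Kcnb2 (2.52-fold [1.43 to 4.87]) and Kcnt2 (5.43-fold [1.78 to 27]) were higher and Kcnh7 lower (4.87-fold [2.97 to 8.03]). Compared with neurons with little Calca, 4 of 36 were higher and 16 lower, with a median log2 ratio of -0.69. All genes together gave 4.35% higher and 2.17% lower in the first comparison, and 6.03% higher and 13.0% lower in the second. The calcium channel genes gave 0 of 7 higher and 1 lower (Cacnb4, 2.71-fold [1.92 to 3.79]) against Trpa1/Mfap5/Gpr83 neurons and 2 of 13 higher and 6 lower, with a median log2 ratio of 0.0045, against neurons with little Calca. There Cacna2d1, the alpha2delta-1 subunit to which gabapentin binds, was 3.41-fold (3.16 to 3.67) higher.

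**Figure D3:**
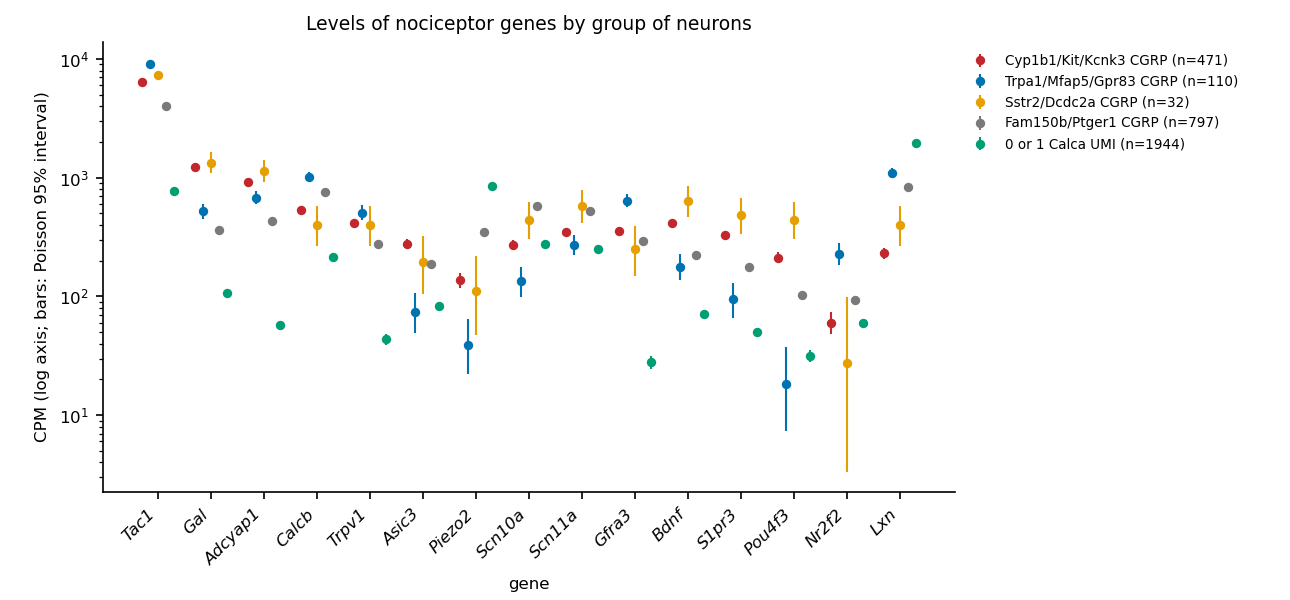
Levels of 15 genes (horizontal axis) as CPM on a log axis with Poisson 95% intervals, in 5 groups of neurons (colours, with the number of cells). The red points of the Cyp1b1/Kit/Kcnk3 neurons lie above the blue points of Trpa1/Mfap5/Gpr83 neurons for Gal, Asic3, Piezo2, Scn10a, Bdnf, S1pr3 and Pou4f3, and below them for Tac1, Calcb, Gfra3, Nr2f2 and Lxn.

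Growth factor genes differed in both directions. Of growth factor genes other than Kit, 3 of 12 were higher and 1 lower, with a median log2 ratio of 0.61 against Trpa1/Mfap5/Gpr83 neurons. Bdnf, a neurotrophin that nociceptors release, stood at 419 CPM (387 to 453) and was 2.35-fold (1.83 to 3.07) higher. Igf1r was also higher (3.38-fold [1.25 to 12.9]) and Vegfa lower (2.09-fold [1.42 to 3.05]). Gfra3, the coreceptor for artemin, went the other way at 354 CPM (325 to 386) against 642 CPM (564 to 728), within 2-fold. With neurons with little Calca as the reference 4 of 18 were higher and 6 lower, with a median log2 ratio of -0.05. Over all genes the shares were 4.35% higher and 2.17% lower in the first comparison, and 6.03% higher and 13.0% lower in the second. Kitl, the gene of the KIT ligand, was seen in 3.82% (2.28 to 5.97) of the cells, at 15.8 CPM (10.1 to 23.4), against 84.3 CPM (78.4 to 90.5) in neurons with little Calca. Of genes of KIT signalling, 0 of 10 were higher and 1 lower, with a median log2 ratio of -0.04 and 3 of 17 were higher and 2 lower, with a median log2 ratio of 0.06 in the same order of comparisons, with Gab2 the lower gene in the first.

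Of receptors for inflammatory and excitatory mediators, 5 of 9 were higher and 0 lower, with a median log2 ratio of 1.07 against Trpa1/Mfap5/Gpr83 neurons, where 4.35% of all genes were higher. S1pr3, a receptor for sphingosine 1-phosphate, was seen in 54.8% (50.2 to 59.3) of the cells at 328 CPM (299.99 to 358) against 94.3 CPM (66.1 to 131). Ptgir, the prostacyclin receptor gene, was 6.8-fold (3.06 to 18.8) higher, F2rl2, a protease-activated receptor gene, 4.67-fold (2.08 to 13) and Gpr149, an orphan receptor gene, 2.09-fold (1.2 to 3.95). Htr3a, the serotonin-gated channel gene, had 86 UMIs in 31 of the 471 cells and none in the 110 Trpa1/Mfap5/Gpr83 neurons, at least 7.18-fold higher when 3 UMIs are set in place of 0. A further 3 genes of the list, Ptger1, Lpar1 and Gpr83, took part in the rule and were left out. For this list 7 of 22 were higher and 10 lower, with a median log2 ratio of -0.64 against neurons with little Calca. There 6.03% of all genes were higher and 13.0% lower, and 2.17% of all genes were lower against Trpa1/Mfap5/Gpr83 neurons. The inhibitory receptors gave 1 of 6 higher and 0 lower against Trpa1/Mfap5/Gpr83 neurons. That gene was Htr1b, a target of the triptans, at 68.9 CPM (56.4 to 83.4) against 18.3 CPM (7.38 to 37.8). Relative to neurons with little Calca, 3 of 15 were higher and 4 lower, with a median log2 ratio of 0.01. The mu opioid receptor gene Oprm1 was seen in 3.61% (2.12 to 5.72) of the cells at 11.2 CPM (6.5 to 17.9).

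Transcription factors were among the genes on both sides. Against Trpa1/Mfap5/Gpr83 neurons 4 of 25 were higher and 3 lower, with a median log2 ratio of 0.24. Pou4f3 (Brn3c), a POU-domain factor of sensory neurons, was seen in 37.8% (33.4 to 42.3) of the Cyp1b1/Kit/Kcnk3 neurons and 3.64% (1.0 to 9.05) of the Trpa1/Mfap5/Gpr83 neurons. Its level was 11.6-fold (5.56 to 29.1) higher, at 213 CPM (190.1 to 237). The zinc finger factors Bcl11b (7.21-fold [3.02 to 22.5]) and Bcl11a (2.75-fold [1.53 to 5.47]) and the factor Ebf3 (3.26-fold [1.33 to 10.4]) were also higher. Nr2f2 (COUP-TFII) was 3.82-fold (2.81 to 5.18) lower, Mef2c 2.68-fold (2.05 to 3.49) and Rora 4.15-fold (2.33 to 7.4). Runx1 and Prdm12, factors that direct the development of nociceptors, lay within 2-fold at 173 CPM (153 to 195) and 180.5 CPM (159.8 to 203). Against neurons with little Calca 10 of 37 were higher and 13 lower, with a median log2 ratio of -0.14, with Bcl11b 14.2-fold (10.4 to 19.5) and Pou4f3 6.79-fold (5.77 to 7.99) higher. In that comparison 6.03% of all genes were higher and 13.0% lower, and in the first 4.35% were higher and 2.17% lower.

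For the remaining lists, the shares of all genes were 4.35% higher and 2.17% lower against Trpa1/Mfap5/Gpr83 neurons and 6.03% higher and 13.0% lower against neurons with little Calca. Genes of large myelinated neurons gave 0 of 9 higher and 1 lower (Cntn1) against Trpa1/Mfap5/Gpr83 neurons. Against neurons with little Calca 0 of 18 were higher and 15 lower, with a median log2 ratio of -2.57, with Nefh, a neurofilament gene, 3.84-fold (3.53 to 4.18) lower. Retinoid genes other than Cyp1b1 and Aldh1a3 gave 0 of 4 higher and 1 lower (Rarres1, 4.88-fold [2.85 to 8.44]), and 1 of 6 were higher and 3 lower, with a median log2 ratio of -1.53 in the second comparison, where Rxrg, a retinoid X receptor gene, was the higher one. Of aryl hydrocarbon receptor and glutathione genes, 1 of 12 were higher and 0 lower, with a median log2 ratio of 0.02 and 5 of 15 were higher and 1 lower, with a median log2 ratio of 0.28. Gpx3, a secreted glutathione peroxidase gene, was 25.8-fold (22.7 to 29.4) higher than in neurons with little Calca but within 2-fold of Trpa1/Mfap5/Gpr83 neurons, and Gsta4 was 4.6-fold (2.27 to 10.9) higher than in the latter. Small proteoglycan and matrix genes other than Dcn and Mfap5 gave 0 of 3 past 2-fold in the first comparison and 1 of 5 higher and 2 lower in the second. Glutamate and GABA genes gave 0 of 12 higher and 2 lower in the first, Gria2 (4.47-fold [3.1 to 6.46]) and Gabra3 (5.93-fold [3.79 to 9.38]), and 1 of 22 were higher and 11 lower, with a median log2 ratio of -1.15 in the second.

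Immediate early and injury genes were compared with those in neurons with little Calca, where 14 of 20 were higher and 0 lower, with a median log2 ratio of 1.42. Over all genes of that comparison 6.03% were higher and 13.0% lower. Jun stood at 1205 CPM (1150.4 to 1261) against 318 CPM (307 to 330.2), Atf3, a marker of axon injury, at 359 CPM (329.5 to 390.4) against 121 CPM (114 to 128), and Dusp1 at 283 CPM (257 to 311) against 65.7 CPM (60.5 to 71.3). Against Trpa1/Mfap5/Gpr83 neurons 3 of 18 were higher and 1 lower, with a median log2 ratio of 0.22. The higher genes were Klf4, Hspb1 and Nfkbia and the lower one Gadd45a, and Fos, Jun and Atf3 lay within 2-fold.  Xist, from the X chromosome of females, was seen without a Y-linked gene in 83 Cyp1b1/Kit/Kcnk3 neurons, a Y-linked gene (Ddx3y, Eif2s3y, Uty or Kdm5d) without Xist in 97 and both in 3. No sex-linked gene passed 2-fold in either comparison.

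The 10 genes on each side that stood farthest from Trpa1/Mfap5/Gpr83 neurons, by the bound of the interval nearest to equal levels, include some of those above. Higher were Chp2, Htr3a, Slc7a3, Pou4f3, Ifitm2, Resp18, Tpm2, Cacng4, Fgfr1 and Ptgir. Of these, Chp2, a calcineurin-like calcium-binding protein gene (98 UMIs), Slc7a3, a cationic amino acid transporter gene (84) and Tpm2, a tropomyosin gene (54) had no UMI in the 110 cells. They were at least 8.18-fold, 7.01-fold and 4.51-fold higher when 3 UMIs are set in place of 0. Ifitm2 had 101 UMIs against 1 (25.3-fold [4.44 to 1009]), Cacng4 had 81 against 1 (20.3-fold [3.54 to 811]) and Fgfr1 had 115 against 3 (9.6-fold [3.2 to 47.2]). Lower were Ntm, Asic1, Plcd4, Gna14, Lxn, Negr1, Gabra3, Rph3a, Gsg1l and Lphn3. Ntm and Negr1, both genes of the IgLON family of cell adhesion molecules, were 18.4-fold (10.4 to 34.6) and 6.71-fold (4.0 to 11.5) lower. Lxn, the gene of the carboxypeptidase inhibitor latexin, stood at 232 CPM (209 to 258) against 1095 CPM (993 to 1206). Plcd4, a phospholipase C gene, was 6.31-fold (4.84 to 8.27) lower, Gna14, a G protein alpha subunit gene, 7.99-fold (4.56 to 14.4), Rph3a, the rabphilin gene of vesicle release, 4.61-fold (3.48 to 6.12), Gsg1l, an auxiliary subunit of AMPA receptors, 5.91-fold (3.46 to 10.2) and Lphn3, a latrophilin gene, 4.78-fold (3.24 to 7.07). All 20 genes stayed past 2-fold when the shared or neighbouring barcodes were left out. Of the lower genes 9 of 10 did so after thinning and 9 of 10 without the limit on the Fam150b list. When cells with over 1 UMI of a marker of other cells were left out, 9 of 10 higher and 7 of 10 lower genes did.

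**Figure D4:**
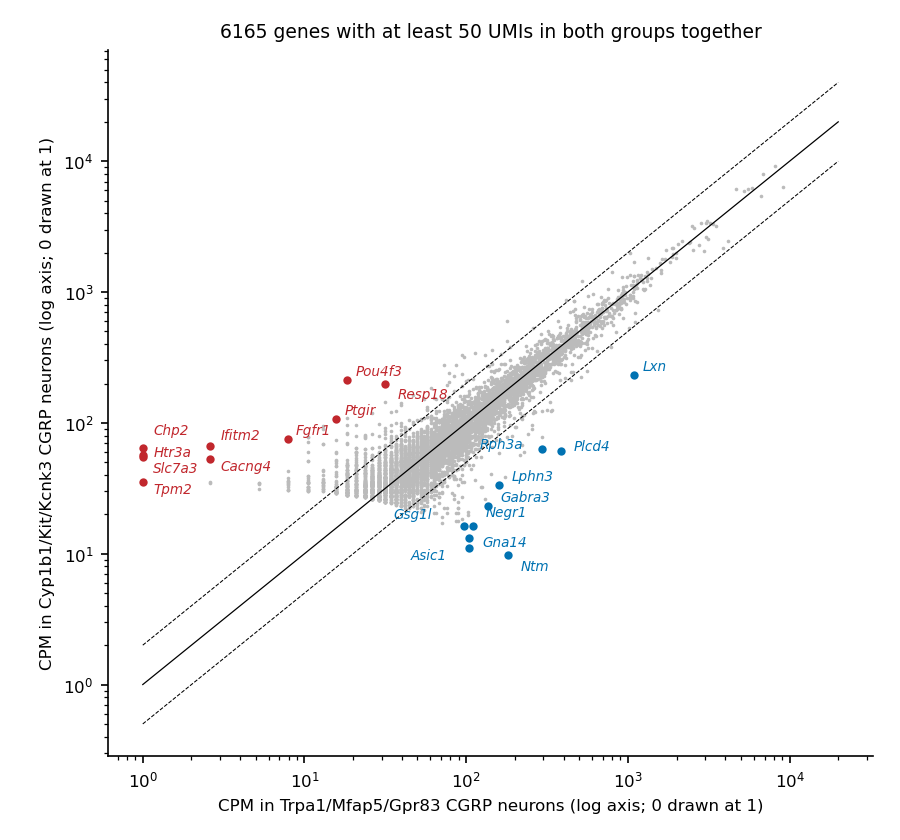
Level of each of 6165 genes in Cyp1b1/Kit/Kcnk3 neurons (vertical axis) against its level in Trpa1/Mfap5/Gpr83 neurons (horizontal axis), as CPM on log axes, with genes at 0 drawn at 1. The solid line marks equal levels and the dashed lines a 2-fold ratio, and the named genes are the 10 with the highest lower bound (red) and the 10 with the lowest upper bound (blue) of the ratio.

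Against neurons with little Calca, the genes that stood highest by the same rule were Avpr1a, Tmem100, Slc10a6, Gpx3, Rspo1, A130066N16Rik, Ccl2, Qpct, Slc7a3 and Adcyap1. Tmem100, a membrane protein gene known from peptidergic nociceptors, was seen in 45.2% (40.7 to 49.8) of the cells at 238 CPM (214 to 264), 38.3-fold (28.8 to 51.7) higher. Avpr1a, a vasopressin receptor gene, had 67 UMIs against 3 (132-fold [43.3 to 656]) and Ccl2, a monocyte chemokine gene, stood at 142 CPM (123 to 162) against 4.89 CPM (3.55 to 6.56). Slc10a6 was 38.7-fold (23.5 to 67.6), Rspo1 56.7-fold (22.7 to 183), A130066N16Rik 56.7-fold (22.7 to 183), Qpct 26.6-fold (17.5 to 41.6) and Adcyap1 16-fold (14.5 to 17.8) higher. Among the lowest were Fam19a4, Vip, Tmem45b, Cdh11, Mog, Ccdc68, Gm7271, Pou4f2 and Tmem72. Fam19a4, a secreted protein gene of low-threshold C-fibre neurons, and Pou4f2 had no UMI in the 471 cells and were at least 83.6-fold and 33.3-fold lower. Cdh11 (122-fold [33.6 to 1006]), Tmem45b (138-fold [38.2 to 1142]), Ccdc68 (161-fold [28.8 to 6349]), Tmem72 (78.2-fold [26.7 to 379.5]), Vip (195-fold [54 to 1614]) and Gm7271 (46.6-fold [27.2 to 87.6]) were also lower. Mog is a myelin gene, and the 6 glial markers summed to 3505 CPM in the neurons with little Calca against 210.0 in Cyp1b1/Kit/Kcnk3 neurons. Mog was 167-fold (29.9 to 6597) lower, and the part of glial RNA in other genes was not tested.

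The 32 Sstr2/Dcdc2a neurons allowed only a coarse comparison. Of 5519 genes, 758 (13.7%) were higher in Cyp1b1/Kit/Kcnk3 neurons and 228 (4.13%) lower, and the 10 highest were Hbb-bt, Dusp1, Tspan8, Ift122, 6330403K07Rik, Hspb1, Gh, mt-Nd6, Abhd14b and Nfkbiz. Hbb-bt and Gh belong to erythroid and pituitary cells, whose markers summed to 8276 and 694 CPM against 5378 and 277 CPM in the Sstr2/Dcdc2a neurons. Dusp1 was 4.09-fold (1.74 to 12.7) and Hspb1, a small heat shock protein gene, 2.88-fold (1.51 to 6.33) higher, and of the immediate early and injury genes 6 of 17 were higher and 0 lower, with a median log2 ratio of 0.32. Among the lowest were Pcp4, Hs6st2, Erdr1, Bves, Pvrl2, Fuca1, Ncaph2, Ept1 and Slc29a1. Pcp4, a calmodulin regulator gene, stood at 200.2 CPM (178 to 224) against 760.4 CPM (573 to 989.7) and Hs6st2, a heparan sulphate sulphotransferase gene, at 194 CPM (173 to 218) against 456 CPM (314 to 641). Pou4f3 was lower as well, at 213 CPM (190.1 to 237) against 442 CPM (303 to 625). Tac1, Gal, Adcyap1, Calcb and Trpv1 lay within 2-fold. The 32 cells held 72332 UMIs, and 725 of the 986 genes past 2-fold had intervals that reached equal levels. The numbers of higher and lower genes moved under 9 alternative settings and stayed within the allowed spread under 6. They were 178 and 54 with 3 or more list genes, 240 and 52 without Cartpt, and 1660 and 662 without the Fam150b limit. The median log2 ratio over all genes was 0.03.

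The 797 Fam150b/Ptger1 neurons include cells that met every other condition of the Cyp1b1/Kit/Kcnk3 neurons and were removed only by the Fam150b limit. That limit removed 291 cells in all, so the groups are not distinct in the genes of the Cyp1b1 list. Against the 797 Fam150b/Ptger1 neurons, whose median depth was 5692 UMIs, 188 of 10143 genes (1.85%) were higher and 546 (5.38%) lower, with a median log2 ratio of -0.0041. This balance depended on the choice of cells, with 188 higher and 200 lower when the neurons were chosen after thinning, and 486 higher and 417 lower without the limit on the Fam150b list. Gal (3.35-fold [3.15 to 3.55]), Adcyap1 (2.12-fold [1.99 to 2.26]), Scg2 (2.04-fold [1.95 to 2.13]) and Pou4f3 (2.07-fold [1.81 to 2.37]) were among the higher genes. Of inflammatory and excitatory receptors 0 of 17 were higher and 8 lower, with a median log2 ratio of -0.21. The lower ones were F2r, Lpar3, Htr3b, Osmr, Agtr1a, Mrgprd, Mrgpra3 and Gpr158, of which Mrgprd and Mrgpra3 mark other classes of nociceptors and itch neurons. Of sodium channels, 0 of 10 were higher and 4 lower, with a median log2 ratio of -0.65, with Scn10a at 270.4 CPM (245 to 298) against 579.9 CPM (562 to 598).

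Within all 1610 CGRP neurons, the number of cells with both genes of a pair was set against the number expected if each gene were seen independently within the 10 depth bins. All 21 pairs of the 7 list genes were seen together more often than that, by a ratio of 1.15 to 1.98 (median 1.39). The same held for all 21 pairs of the Trpa1 list (1.32 to 4.06, median 1.75), and each of the 7 list genes was above 1 with Gal (1.2 to 1.41) and with Trpv1 (1.08 to 1.21) as well. Kcnk3 and Ccl21a were seen in 103 cells with 52 expected (1.98), and Cyp1b1 and Kcnk3 in 177 with 100.4 (1.76). Kit and Cyp1b1 had a ratio of 1.61 and Kit and Kcnk3 of 1.42. With the genes of the Trpa1 list the ratios ran from 0.353 to 1.497 (median 0.867, 17 of 49 above 1). Cyp1b1 was seen with Mfap5 in 19 cells against 53.8 expected, while Ccl21a with Trpa1 had a ratio above 1. The genes share libraries and depth within a bin, and the lists were drawn from these cells, so these ratios are a description.

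The list genes also went with Sstr2 and Dcdc2a. Of 14 such pairs 12 had a ratio above 1 (median 1.42), among them Aldh1a3 with Sstr2 (2.24), Dcdc2a with Cyp1b1 (2.02) and Dcdc2a with Kcnk3 (1.92). Dcn with Sstr2 (0.949) and Ccl21a with Sstr2 (0.957) were below 1. Sstr2 and Dcdc2a with each other had a ratio of 2.86.

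**Figure D5:**
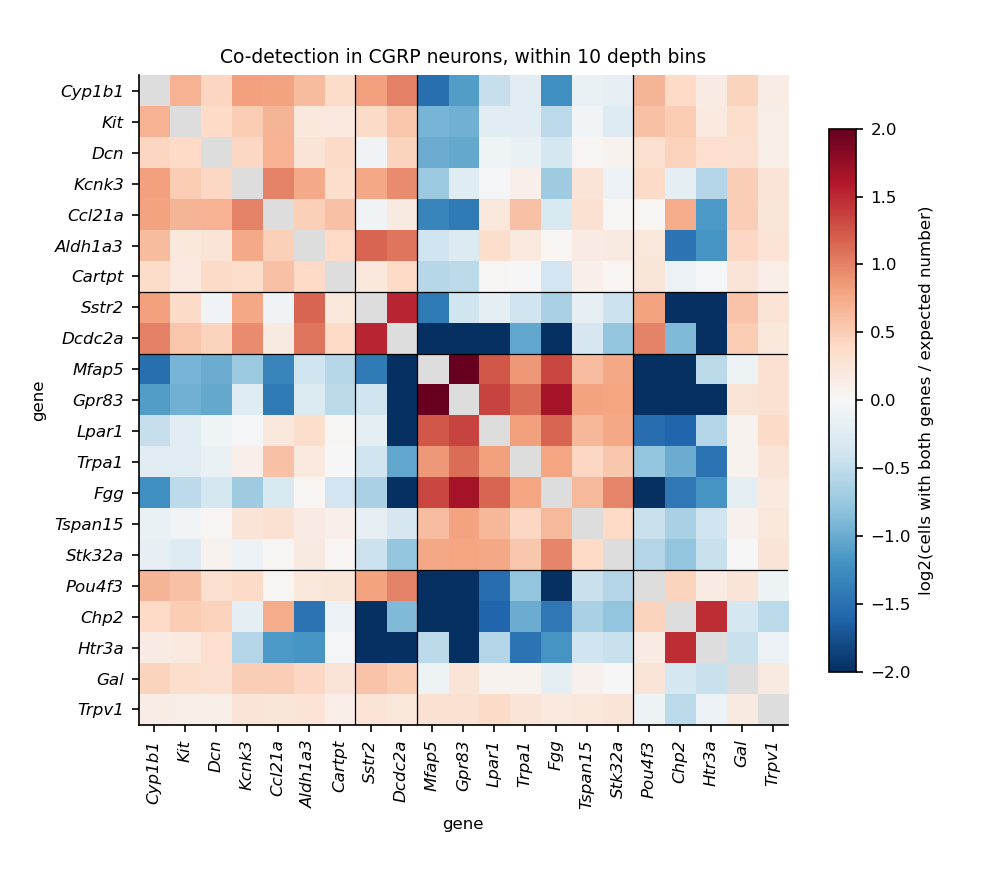
Number of CGRP neurons with a UMI of both genes of a pair, divided by the number expected from independence within the 10 depth bins, as log2 (colour; ratios under 0.25 drawn at 0.25), for 21 genes on both axes (lines separate the 7 list genes, Sstr2 and Dcdc2a, the Trpa1 list and 5 other genes). The 7 list genes are red among themselves, Mfap5 and Gpr83 are blue against them, and Chp2 and Htr3a are blue against Aldh1a3.

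The Cyp1b1/Kit/Kcnk3 neurons were not uniform. Over 5369 genes with at least 50 UMIs, the variance of the Pearson residuals, which is near 1 when a gene follows each cell's depth alone, had a median of 1.09 and was above 2 for 73 genes. Among the 15 with the highest values were Gh (143), Hbb-bs (65.3), Hba-a1 (26.6), Apoe (23.4), Hbb-bt (14.3) and Prl (9.77), genes of pituitary, red blood and glial cells. Of neuronal genes, Nefm (12.4), Nefh (5.01) and Nefl (4.93) encode neurofilaments and Cartpt (12.2), Tac1 (6.46) and Calca (6.0) peptides. Dcn (6.38) and the nuclear RNAs Malat1 (16.6) and Meg3 (6.06) were the remaining ones.

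A UMI of Sstr2 or Dcdc2a was seen in 146 of the 471 neurons (31.0%), which had a median of 2966.5 UMIs against 2184 in the other 325. The 32 Sstr2/Dcdc2a neurons are those in which either gene was seen and the conditions of the other groups were not met. The 146 neurons had more Samsn1 (139 against 44 CPM, 3.16-fold [2.14 to 4.7]), Hs6st2 (309 against 126 CPM, 2.46-fold [1.94 to 3.13]) and Avpr1a (77.3 against 24.1 CPM, 3.21-fold [1.9 to 5.57]). They had less Dcn (274 against 843 CPM, 3.08-fold [2.59 to 3.67]) and less Htr3a (5.27 against 86.9 CPM, 16.5-fold [5.45 to 81.6]), S100b (21.1 against 137 CPM, 6.51-fold [3.6 to 12.9]) and Lxn (82.6 against 322 CPM, 3.89-fold [2.86 to 5.41]). Aldh1a3 was higher (248 against 121 CPM, 2.04-fold [1.58 to 2.63]).

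Chp2 or Htr3a was seen in 73 neurons (15.5%, median 3558 UMIs), of which 10 also had Sstr2 or Dcdc2a, and 262 had neither pair. In all CGRP neurons Chp2 and Htr3a were seen together in 76 cells with 27.4 expected (2.78), and Chp2 and Aldh1a3 in 17 with 47.1 (0.361). The 73 neurons had more Thy1 (203 against 16.4 CPM, 12.4-fold [7.36 to 21.6]), S100b (321 against 36.9 CPM, 8.68-fold [6.04 to 12.7]) and Nefh (825 against 260.2 CPM, 3.17-fold [2.68 to 3.75]), genes that are high in larger and myelinated sensory neurons, and more Atp1b1, a sodium pump subunit gene (1787 against 463 CPM, 3.86-fold [3.43 to 4.35]). They had less Aldh1a3 (36 against 202 CPM, 5.61-fold [3.08 to 11.4]), Gpx3 (337 against 967 CPM, 2.87-fold [2.34 to 3.54]) and Pcp4 (39.3 against 241 CPM, 6.12-fold [3.45 to 12]). This pair and the genes named for both subsets were chosen after their values were seen.

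Markers of the other cells in which list genes are known were near 0. Whether Dcn or Kit RNA in these barcodes came from other cells was not tested. Dcn marks fibroblasts. Of 8 fibroblast markers, Col1a1, Lum, Pdgfra and Dpt had no UMI in the 471 neurons. The 8 summed to 6.56 CPM, against 7.86 to 27.7 CPM in the other groups of neurons. Kit marks mast cells and melanocytes. The 4 mast cell markers summed to 1.31 CPM (0 to 2.18 in the other groups of neurons), with Mcpt4 and Cma1 at 0, and the 5 melanocyte markers to 3.28 CPM (0 to 5.89), with Pmel and Dct at 0. The 6 endothelial markers summed to 4.59 CPM (0 to 17.2), with Kdr and Lyve1 at 0, and the 4 mural cell markers had no UMI (0 to 11.3 CPM). The 6 glial markers had 320 UMIs and summed to 210.0 CPM, against 278 to 3505 in the other groups of neurons. The 7 erythroid markers summed to 8276 CPM (3491 to 8352 in the other groups of neurons and 367991 in erythroid cells) and the 6 pituitary markers to 694 CPM (277 to 1732). A UMI of an erythroid marker was seen in 452 of the 471 neurons. When cells with over 1 UMI of a glial marker, Hbb-bs, Hba-a1, Col1a1 or Pecam1 were left out, 70 neurons remained, with Trpv1 in 51.4% and Tac1 at 7055 CPM. Of 10 markers of other neuron classes, Fam19a4, Mrgpra3, Sst and Mrgprb5 were at 0 and the sum was 30.2 CPM, against 27.7 to 658 in the other groups of neurons.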

How the data were processed

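Trigeminal cells of 9 Drop-seq runs were deposited by the authors as 1 table of raw UMI counts, 21536 genes by 6997 barcodes, whose smallest barcode holds 1000 UMIs. The submitters' processing notes name bcl2fastq 2.17, STAR 2.5.3a, Seurat 1.4.0.16 and mm10, and the counts were used as deposited. The table contained 0 missing values and 0 that were not whole. Barcodes could not be tied to runs, animals or sexes, so the cells form 1 pooled sample and no test, standard error or p-value was made from them. The members and gene lists were chosen with earlier results of these data known.

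Groups were set by the UMI conditions in the text. No doublet caller was run, and cells with UMIs of other cell types were left out only as an alternative. UMIs were summed per group and given as CPM. Genes with 50 or more UMIs in both groups together, other than those of the rule, were compared by their CPM ratio. The named genes were all members of the rule's list, then the 10 genes past 2-fold in each direction whose 95% interval lay farthest from equal levels, and the 15 most variable genes. Where a group had 0 UMIs, 3 were set in its place for a bound. For thinned shares, 1000 UMIs per cell were drawn at random. Intervals and ratios were tested on simulated data first. Alternatives covered the list, the Calca limit, depth, genes per cell, mitochondrial share, UMI minimum and markers of other cells. Promoter windows came from RefSeq for GRCm38.p6. Python with numpy 2.4.6, scipy 1.17.1, pandas 2.3.3 and matplotlib 3.10.9 was used. Some genes of the lists are not reported here.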

Additional observations from a re-analysis of the deposited data

How the results depend on the processing

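No paired analysis was possible because the table holds 1 pooled sample and no result comes from a test. Of 184 values under alternative settings, 125 stayed within the spread allowed for them and 59 moved. Asking for 3 or more list genes left 305 neurons, with Trpv1 in 69.2%, Asic3 in 57.0%, Tac1 at 6555 CPM and Gal at 1282.5 CPM. Thinning each cell to 1000 UMIs left Trpv1 in 31.6% and Asic3 in 23.99%. Choosing the neurons after thinning gave Trpv1 in 66.5%, Tac1 at 6099.7 CPM and Gal at 1107 CPM, and without Cartpt in the list Asic3 was in 54.8%. Leaving out cells with more than 1 UMI of a marker of other cells left 70 neurons, with Trpv1 in 51.4%, Asic3 in 35.7%, Tac1 at 7055 CPM and Gal at 1036 CPM. Without the limit on the Fam150b list, chosen after seeing the data, there were 762 neurons, with Asic3 in 54.1%, Tac1 at 5168 CPM and Gal at 903 CPM.

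Counts of genes past 2-fold moved with the UMI minimum and with the cells chosen. With at least 10 UMIs, higher and lower genes numbered 1085 and 613 against Trpa1/Mfap5/Gpr83 neurons, 2411 and 987 against Sstr2/Dcdc2a neurons, 564 and 1236 against Fam150b/Ptger1 neurons, and 1128 and 2617 against neurons with little Calca. With at least 200 UMIs the pairs were 41 and 24, 56 and 4, 54 and 226, and 290 and 629. Without cells with UMIs of other markers they were 30 and 8, 67 and 20, 28 and 38, and 180 and 526, fewer genes reaching the minimum in fewer cells. Without the Fam150b limit they were 396 and 423, 1660 and 662, and 486 and 417 against the first 3 groups, so that the larger side switched against the first (268 and 134 with the limit) and the third (188 and 546). Against the second, they were 178 and 54 with 3 or more list genes, 487 and 120 without Aldh1a3 in the list (also chosen after seeing the data), 240 and 52 without Cartpt, 465 and 124 without Dcn, and 378 and 104 after thinning, which also gave 188 and 200 against the third. The cause of these shifts was not tested.

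Of the 10 genes named on each side, all 10 stayed past 2-fold against Trpa1/Mfap5/Gpr83 neurons and neurons with little Calca under every alternative that re-chose the cells, with these exceptions among the genes lower than in Trpa1/Mfap5/Gpr83 neurons. They were 9 after thinning, 9 without the Fam150b limit and 7 without cells with UMIs of other markers, where 9 of the higher genes stayed too.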
